A study of Mus musculus with 4 samples.

Results

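ATP-binding cassette (ABC) transporter genes were followed in the liver RNA of fasted wild-type and Cnot3+/- mice. They were taken as every probe set of the expression table that carries exactly 1 platform gene symbol of the families Abca to Abcg followed by a number. This gave 92 of 45101 probe sets, for 45 genes. The samples were livers of male C57BL/6J mice, 12 weeks old, on normal chow and without food for 24 h. There were 2 wild-type mice and 2 mice labelled Cnot3 heterozygotes (Cnot3+/-), with 1 array each, called here wild-type 1, wild-type 2, Cnot3+/- 1 and Cnot3+/- 2. All 4 mice share the fast, and the labels do not describe the Cnot3 allele further. Cnot3 encodes a subunit of CCR4-NOT, the complex that removes poly(A) tails from mRNAs. The question is which transporter transcripts differ with genotype in fasted liver.

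ABC proteins use ATP to move substrates across membranes. In hepatocytes, those of the canalicular membrane drive bile flow by exporting bile salts, conjugates, phospholipid and sterols into bile, while others sit on the blood side or in mitochondria, peroxisomes and lysosomes. The ABCE and ABCF proteins have the ATP-binding domains without membrane spans and act on ribosomes and translation. The labelled tissue matched its markers. Of 7 hepatocyte markers 6 were tested, with albumin (Alb) at log2 values of 14.80, 14.86, 14.83 and 14.87 in the order wild-type 1, wild-type 2, Cnot3+/- 1, Cnot3+/- 2, an order kept for every set of 4 values below.

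The arrays had median log2 values between 4.62 and 4.66. A gap of 2-fold or more separated the pair of wild-type arrays at 74 of 13379 genes tested, and the Cnot3+/- pair at 432. Cnot3 itself stood at 7.48, 8.14, 7.70 and 7.86, a difference of -0.03 (SE 0.25, limma adjusted p = 1), so this probe set does not bear out the genotype labels. Each direction below rests on the arrays as labelled. The labels call the mice of a genotype biological replicates, and with 2 arrays a genotype their number limits all precision here.

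Upstream stretches of the members on which the description turns are shown first, from RefSeq on assembly GRCm38.p6, where 35 of the 45 genes matched the promoter table. Each is written 5′ to 3′ in lower case, and capitals mark matches, searched on both strands, to 3 short promoter motifs. These were CCAAT, present upstream of many genes, the GC box, which is spelled GGGCGG, and the TATA box, which is spelled TATAAA. The first is the 250 bases before the annotated start of Abca3, the member with the lowest p, at chr17:24351773-24352022 on the plus strand. The second is the 250 bases before the start of Abcb1a, whose second probe set had the lowest p of any member probe set, at chr5:8566841-8567090 on the plus strand. The last is the whole stretch of 109 bases between the divergent starts of Abcg5 and Abcg8, at chr17:84683012-84683120, written on the plus strand, from which Abcg8 is read to the right and Abcg5 to the left.
Abca3: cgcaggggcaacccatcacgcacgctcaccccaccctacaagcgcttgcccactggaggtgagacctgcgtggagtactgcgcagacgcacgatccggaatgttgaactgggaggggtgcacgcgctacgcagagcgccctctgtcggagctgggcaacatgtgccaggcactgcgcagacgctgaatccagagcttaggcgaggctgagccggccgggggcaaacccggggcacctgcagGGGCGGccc
Abcb1a: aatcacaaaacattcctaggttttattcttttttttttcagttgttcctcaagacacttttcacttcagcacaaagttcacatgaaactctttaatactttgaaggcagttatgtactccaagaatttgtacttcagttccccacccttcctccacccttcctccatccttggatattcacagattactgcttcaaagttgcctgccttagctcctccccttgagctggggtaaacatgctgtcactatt
Abcg5-Abcg8: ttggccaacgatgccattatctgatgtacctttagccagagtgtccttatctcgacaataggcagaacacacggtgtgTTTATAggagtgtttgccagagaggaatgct

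The Abca3 stretch had a G and C content of 67.6% and 1 GC box, which 32.7% of all 32851 promoter entries hold in their last 250 bases before the start. The Abcb1a stretch had a G and C content of 40.4% and none of the 3 motifs. CCAAT occurred in 33.8% and TATAAA in 12.4% of the entries over that length. The stretch between Abcg5 and Abcg8 held 1 TATAAA match, on the minus strand, a match found in 5.9% of entries over 109 bases. No stretch held more than 1 match, so none overlapped, and a match describes letters and not binding.

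No ABC transporter gene differed between the genotypes past the threshold. Of the 45 genes, 38 passed the filter on dim probe sets and were tested, and 0 of them had a limma adjusted p below 0.05 (Benjamini-Hochberg), where 0.0149% of all genes tested did. At an unadjusted p below 0.05 there was 1 member, against 3.59% of all genes. The direction was mixed, with 21 of 38 members higher in Cnot3+/-, beside 47.9% of all genes, and 18 of 38 after quantile normalization. Between the genotypes 9 members did not overlap, 3 of them higher and 6 lower. Over all genes 31.5% did not overlap, 14.1% higher and 17.4% lower. Among the lower members, Abcd2 passed the filter only through its wild-type values. The median log2 difference, taken as Cnot3+/- minus wild-type throughout, was 0.02 over the members and -0.01 over all genes, and it turned to -0.02 for the members after quantile normalization.

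The differences were small. On the probe set tested for each gene they ran from -0.45 for Abca3 to 0.50 for Abcb1b. Over all member probe sets above the filter they ran from -0.50 for Abcc9 to 0.69 for Abcb1a. The 95% interval lay within a 2-fold change in either direction for 35 of the 38 members, or 92.1%, the exceptions being Abcb1b, Abcg1 and Abcc4, against 92.0% of all genes. These intervals are not widened for the number of genes. The members lay further apart between the Cnot3+/- arrays than between the wild-type arrays, with a median gap of 0.29 against 0.15. Over all genes the same median gap was 0.18 in both genotypes.

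**Figure D1:**
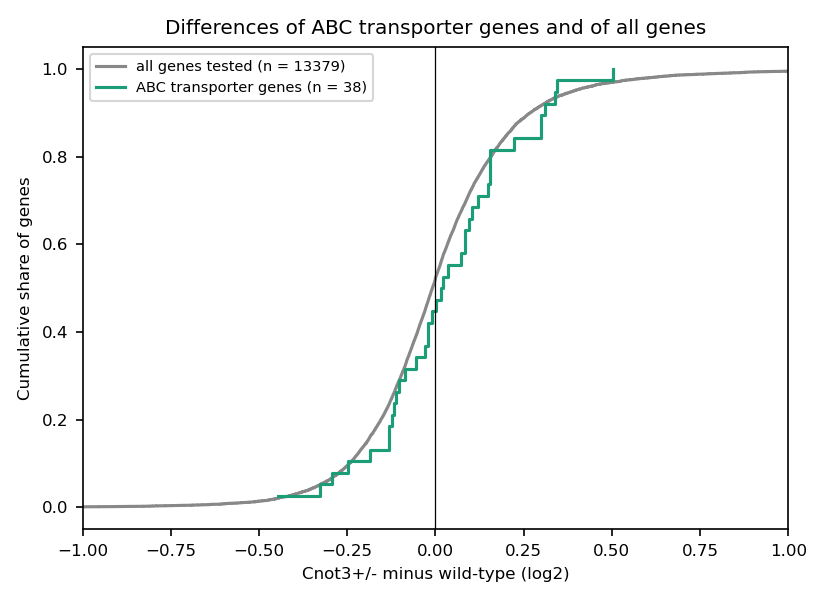
Cumulative share of genes (vertical axis) by their log2 difference, Cnot3+/- minus wild-type (horizontal axis, cropped at a difference of 1 on either side), for 38 ABC transporter genes and for the 13379 genes tested. The curves run close together, with medians of 0.02 and -0.01.

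**Figure D2:**
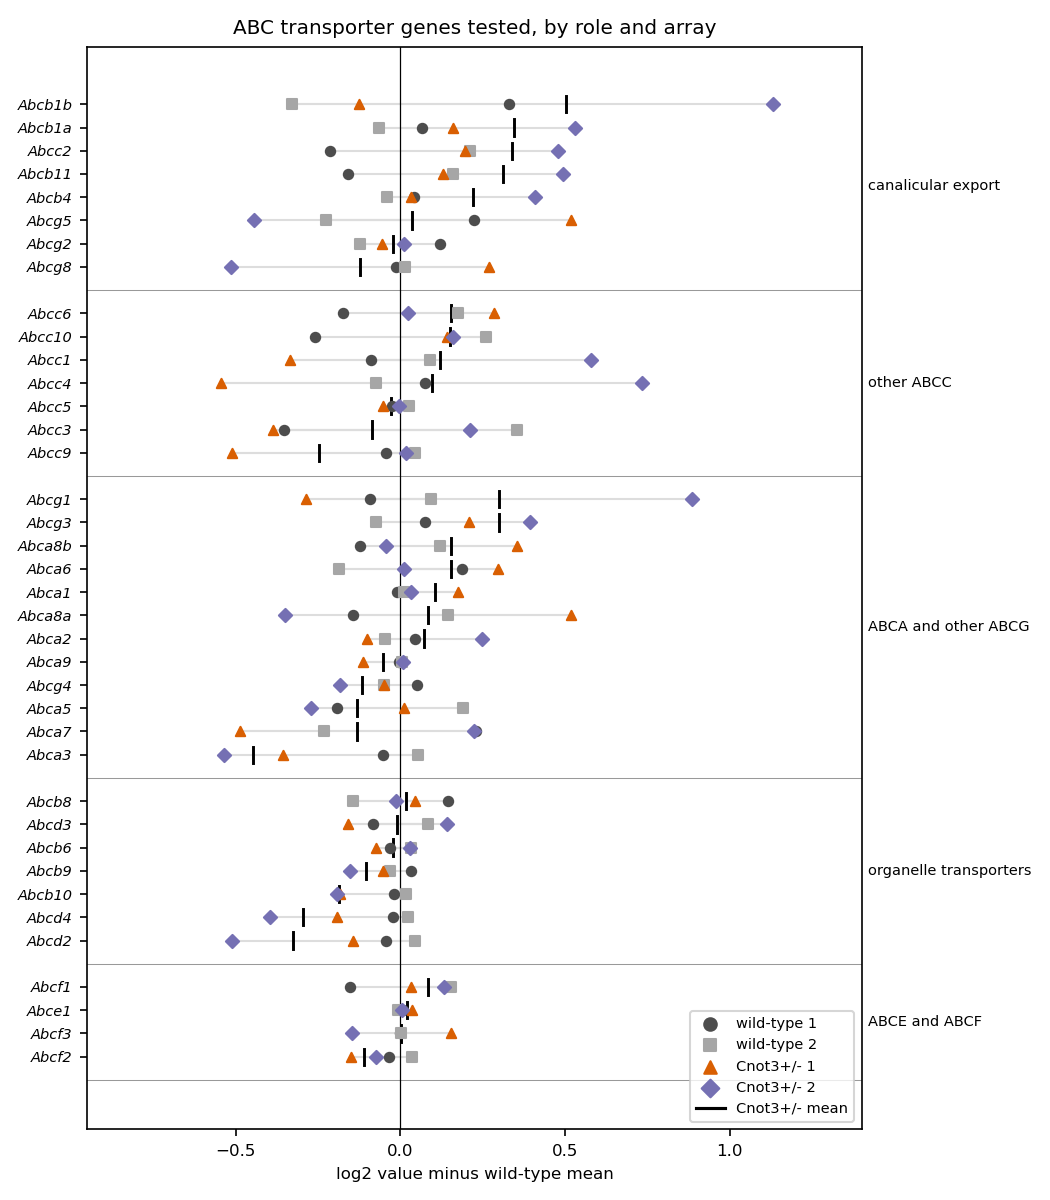
Log2 value of each of the 38 tested ABC transporter genes on each array, minus that gene's wild-type mean (horizontal axis), grouped by role. Symbols are arrays and black bars the Cnot3+/- means; in most genes the symbols of the genotypes interleave, and 9 genes do not overlap.

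The canalicular exporters leaned to higher values in Cnot3+/- without a call. All 8 genes were tested, 6 above and 2 below wild-type; their median difference was 0.27 and their lowest adjusted p 0.999 (limma). Set against each gene's wild-type mean, the group's median was 0.05 and -0.05 on the wild-type arrays, 0.15 on Cnot3+/- 1 and 0.44 on Cnot3+/- 2. The median difference was 0.15 without Cnot3+/- 2, and 0.13 under a filter at 60%, which removes 2 of the 8 genes.

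Abcb11, the bile salt export pump, had log2 values of 10.77, 11.09, 11.06 and 11.42. Cnot3+/- 2 was the highest array, while Cnot3+/- 1 lay just below wild-type 2, so the genotypes overlapped. It differed by 0.31 (SE 0.20, n = 2 a genotype, limma adjusted p = 0.999), and 0.15 without wild-type 1 and 0.13 without Cnot3+/- 2. Abcc2, the canalicular exporter of bilirubin and glutathione conjugates, stood at 9.38, 9.80, 9.79 and 10.07. Its order of arrays was the same as that of Abcb11, and its difference was 0.34 (SE 0.20, limma adjusted p = 0.999), or 0.13 without wild-type 1. The probe set of Abcc2 is of the kind that can match several transcripts. Abcb4, which moves phosphatidylcholine into bile, stood at 11.01, 10.93, 11.001 and 11.38. Only Cnot3+/- 2 lay above the wild-type arrays, and the difference of 0.22 (SE 0.17) shrank to 0.03 without it.

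The Abcb1a and Abcb1b genes encode the P-glycoproteins, exporters of many drugs and other lipophilic compounds. They and Abcb4 are consecutive protein-coding genes in the order of GRCm38.p6. Abcb1a stood at 5.05, 4.92, 5.14 and 5.51 on the probe set tested. Both Cnot3+/- arrays lay above both wild-type arrays, by a narrow margin for Cnot3+/- 1, and the difference was 0.34 (SE 0.18, adjusted p = 0.999 in limma), or 0.16 without Cnot3+/- 2. On the second Abcb1a probe set the values were 4.20, 4.23, 4.91 and 4.90. Here the arrays of each genotype lay within 0.1 of each other and the difference was 0.69, with an unadjusted p of 0.0028 and an adjusted p of 1 when every probe set was tested in limma. Both Abcb1a probe sets are dim, and no detection call was used. Abcb1b stood at 4.58, 3.93, 4.13 and 5.38. Its wild-type arrays lay on either side of Cnot3+/- 1 and its difference of 0.50 (SE 0.46) turned to -0.12 without Cnot3+/- 2. The Abcb1 genes are close paralogs, so a probe set of either may also detect the other.

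Abcg5 and Abcg8, whose products pair to export sterols into bile, shared an order that set the Cnot3+/- mice apart from each other. Abcg5 stood at 10.02, 9.57, 10.32 and 9.36, and Abcg8 at 8.99, 9.02, 9.28 and 8.49. In both genes Cnot3+/- 1 was the highest array and Cnot3+/- 2 the lowest, with the wild-type arrays between them. The differences were 0.04 (SE 0.35) for Abcg5 and -0.12 (SE 0.27) for Abcg8. Abcg5 was 0.52 without Cnot3+/- 2 and -0.44 without Cnot3+/- 1, and Abcg8 was 0.27 and -0.51 under the same settings. Cyp7a1, the rate-limiting enzyme of bile acid synthesis, also was highest in Cnot3+/- 1 and lowest in Cnot3+/- 2, at 9.46, 9.23, 9.87 and 8.70. It was named for this order after its values were seen. The order was not particular to Cyp7a1, as other genes of the bile formation list below, among them Slc10a1, had it too. The share of all genes with this order was not counted. Abcg2, the breast cancer resistance protein, which exports conjugates and xenobiotics, stood at 10.35, 10.11, 10.17 and 10.24. Both its Cnot3+/- values lay between the wild-type values.

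**Figure D3:**
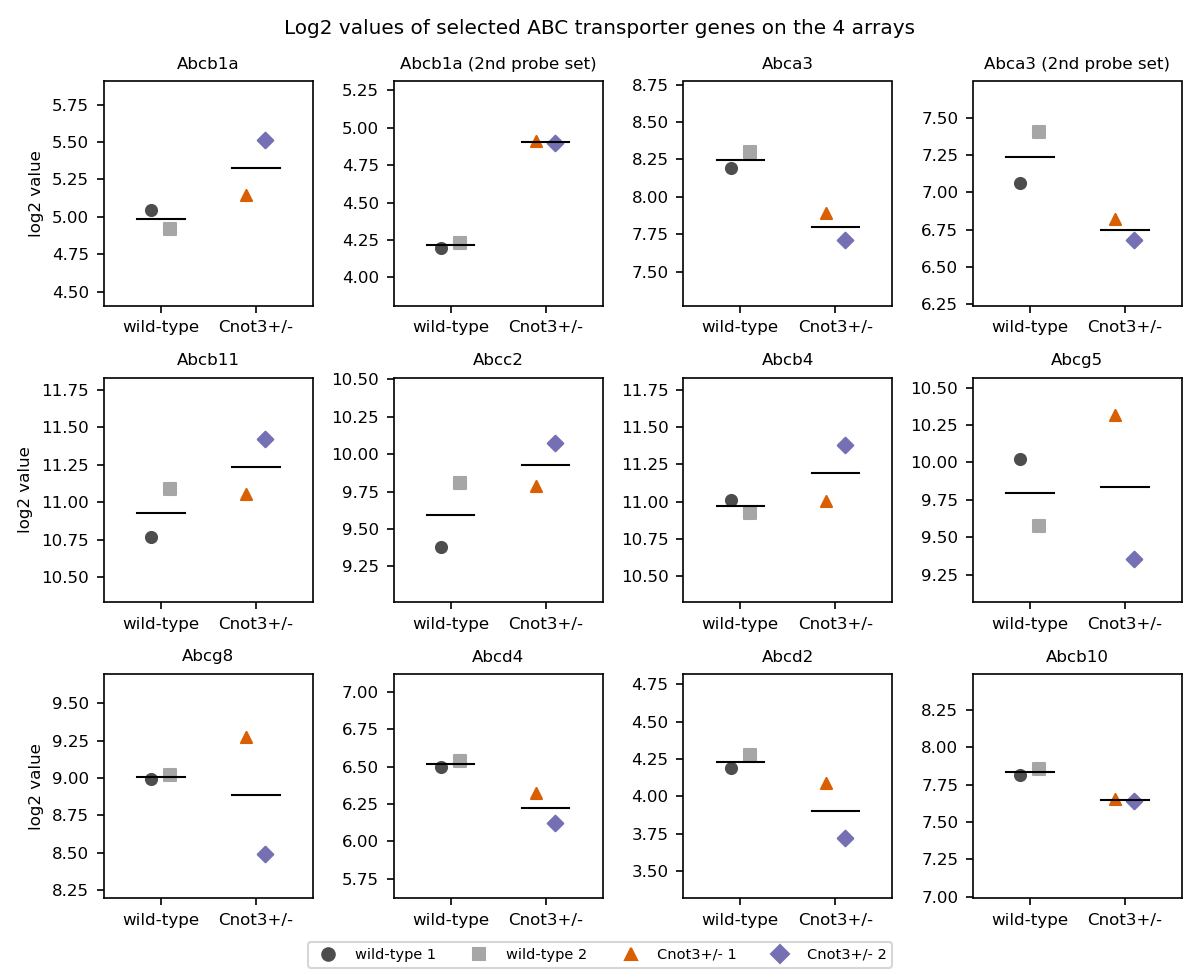
Log2 values (vertical axes, each spanning the same range) of 10 ABC transporter genes by genotype, with a second probe set for Abcb1a and Abca3. Symbols are the arrays and black bars the means of 2 arrays. The genotypes separate for Abcb1a, Abca3, Abcd4, Abcd2 and Abcb10, and overlap for Abcb11, Abcc2, Abcb4, Abcg5 and Abcg8.

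The remaining ABCC genes had no common direction. Of 9 genes 7 were tested, 4 higher and 3 lower, and in 0 of them were the genotypes separated. The median difference of 0.10 turned to -0.34 without Cnot3+/- 2, to -0.06 without wild-type 1 and to -0.03 under the 60% filter. Abcc3, the exporter that returns conjugates from hepatocytes to blood, stood at 9.58, 10.29, 9.55 and 10.15. Replicate 2 was the higher array in both genotypes, by more than the genotypes differed (-0.09, SE 0.31). Without wild-type 2 the difference was 0.27, and without wild-type 1 it was -0.44. Abcc6, whose transport function in liver prevents calcification elsewhere in the body, stood at 8.88, 9.23, 9.34 and 9.08, a difference of 0.16 (SE 0.19) that was -0.02 without wild-type 1.

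Abcc4 and Abcc1, exporters found on the blood side of the hepatocyte and in many other cells, were far apart between the Cnot3+/- mice. Abcc4 stood at 5.76, 5.61, 5.14 and 6.42, with a difference of 0.10 (SE 0.42). It was 0.73 without Cnot3+/- 1 and -0.54 without Cnot3+/- 2. Abcc1 stood at 4.24, 4.42, 3.99 and 4.91, with a difference of 0.12 (SE 0.32), which was 0.58 without Cnot3+/- 1 and -0.34 without Cnot3+/- 2. In both genes the Cnot3+/- arrays were the highest and the lowest of the 4. Abcc9, the sulfonylurea receptor subunit of potassium channels, stood at 7.54, 7.62, 7.07 and 7.60. Only Cnot3+/- 1 was low, and the difference of -0.25 (SE 0.21) became 0.02 without it. The other 2 Abcc9 probe sets above the filter differed by -0.50 and -0.21, also with Cnot3+/- 1 as the lowest array.

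Among the ABCA genes and Abcg1, Abcg3 and Abcg4, 12 of 17 were tested, 7 of them above and 5 below wild-type; the median difference of 0.08 became -0.02 without Cnot3+/- 2. Abca3, a lipid transporter best known from surfactant storage in the lung, was the member with the lowest p. Its log2 values were 8.19, 8.30, 7.89 and 7.71 on the probe set tested. Both Cnot3+/- arrays lay below both wild-type arrays, and the gap between genotypes exceeded the gap within either. It was 1.36-fold lower in Cnot3+/- (difference -0.45, SE 0.14, 95% interval -0.81 to -0.08), with an unadjusted p of 0.0246 and an adjusted p of 0.999 in limma over all genes. It ran from -0.54 to -0.36 when any 1 array was left out. A second probe set stood at 7.06, 7.41, 6.82 and 6.68 and differed by -0.49, again with no overlap. Another, below the filter, differed by -0.06.

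Abca1, which loads cholesterol onto apolipoprotein A-I, stood at 10.89, 10.91, 11.08 and 10.93. Its genotypes did not overlap, though Cnot3+/- 2 lay only just above wild-type 2. The difference was 0.10 (SE 0.13), or 0.032 without Cnot3+/- 1, while the other 2 Abca1 probe sets differed by -0.03 and -0.09. Abcg1, which moves sterols toward lipoproteins and is abundant in macrophages, stood at 7.27, 7.46, 7.08 and 8.25. Cnot3+/- 2 alone was high, and the difference of 0.30 (SE 0.39) turned to -0.29 without it. The second Abcg1 probe set stood at 4.94, 5.41, 4.56 and 5.27, with Cnot3+/- 2 below wild-type 2, and differed by -0.26. Abcg3 stood at 4.68, 4.53, 4.82 and 5.002, a difference of 0.30 (SE 0.15) without overlap, and 0.36 on a second probe set. It resembles Abcg2 in sequence, and both its probe sets are dim.

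The genes Abca8b, Abca8a, Abca9, Abca6 and Abca5 follow each other on chromosome 11 in the gene order of GRCm38.p6. Abca8a stood at 10.31, 10.60, 10.98 and 10.11. Cnot3+/- 1 was the highest array and Cnot3+/- 2 the lowest, and the difference was 0.08 (SE 0.31), or -0.35 without Cnot3+/- 1 and 0.52 without Cnot3+/- 2. Abca8b and Abca6 were also highest in Cnot3+/- 1 and differed by 0.15 each, while Abca9 and Abca5 differed by -0.05 and -0.13. All 5 overlapped between the genotypes, and for each of them leaving out some array turned the direction.

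The transporters of organelles leaned to lower values in Cnot3+/- without a call. All 7 were tested, and 6 lay below and 1 above wild-type (all 7 below after quantile normalization); their median difference was -0.10. Set against each gene's wild-type mean, the group's median was -0.02 and 0.02 on the wild-type arrays, -0.14 on Cnot3+/- 1 and -0.15 on Cnot3+/- 2. The median difference was below 0 in each of the alternative analyses, from -0.15 without Cnot3+/- 1 to -0.06 under the 60% filter. Part of this was fixed in advance. An intensity trend in eBayes and the replicate block cannot change a difference. Leaving out 1 array cannot turn a gene whose genotypes do not overlap, and most of the group are such genes. In 4 of the 7 genes the genotypes did not overlap, all 4 lower, beside 31.5% of all genes not overlapping and 17.4% lower. These 4 were Abcb10, Abcd4, Abcb9 and Abcd2. Abcd2 passed the filter only through its wild-type values, so its place in this count depends on them. It is left out under the 60% filter, which leaves 6 genes of the group. Abcb10, Abcd4 and Abcb9 lay above the main filter in both genotypes.

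Abcd2 and Abcd3 encode peroxisomal importers of fatty acyl-CoA. Abcd3 stood at 12.43, 12.60, 12.36 and 12.66, with the Cnot3+/- arrays on either side of wild-type and a difference of -0.01 (SE 0.17). Abcd2 stood at 4.19, 4.28, 4.09 and 3.72, a difference of -0.33 (SE 0.17, limma adjusted p = 0.999), and -0.14 without Cnot3+/- 2. Its mean over all arrays lay just above the filter at 4.06, while its Cnot3+/- mean of 3.91 lay below it (wild-type mean 4.23), so it passed only through wild-type. The other 3 probe sets, all below the filter, differed by -0.60, -0.35 and 0.04. Abcd4, a partner in the lysosomal release of vitamin B12, stood at 6.49, 6.54, 6.32 and 6.12. Both Cnot3+/- arrays were lower, with a difference of -0.29 (SE 0.14, limma adjusted p = 0.999), or -0.19 without Cnot3+/- 2.

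Abcb10, an inner mitochondrial membrane transporter linked to heme synthesis, stood at 7.81, 7.85, 7.65 and 7.64. The arrays of each genotype were within 0.1 of each other, and the difference was -0.19 (SE 0.13), between -0.21 and -0.17 without any 1 array. The other 2 Abcb10 probe sets differed by -0.35 and -0.10. Abcb6, associated with porphyrin transport, stood at 9.45, 9.51, 9.40 and 9.51 (difference -0.02, SE 0.13), and Abcb8, a mitochondrial transporter, at 7.52, 7.23, 7.42 and 7.36 (0.02, SE 0.16). Abcb9, a lysosomal peptide transporter, differed by -0.10 (SE 0.13), or -0.053 without Cnot3+/- 2, and did not overlap.

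The ABCE and ABCF genes had the narrowest range of differences of the 5 groups. The 4 genes had differences from -0.11 to 0.08, 3 of them above 0, and 1 of them above 0 after quantile normalization. Abce1, the ribosome recycling factor, stood at 8.55, 8.54, 8.58 and 8.55, a difference of 0.02 (SE 0.13, 95% interval -0.30 to 0.34). Abcf1, which promotes translation initiation, stood at 9.60, 9.90, 9.78 and 9.88, a difference of 0.08 (SE 0.16). Its 5 probe sets above the filter differed by 0.06 to 0.14. Abcf2 differed by -0.11 (SE 0.13), with no overlap on the probe set tested and 0.03 on another, and Abcf3 by 0.00 (SE 0.16).

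Of the 92 member probe sets, 64 passed the filter. In 15 genes more than 1 did, and in 8 of those every probe set had the same sign. The median spread between the highest and lowest difference of a gene was 0.14, and the largest was 0.56, for Abcg1. The 7 genes that did not pass were Abca4, Abca12, Abca13, Abca14, Abca16, Abcc8 and Abcc12. Their 10 probe sets had means of at most 3.98 and differences from -0.21 to 0.66, the highest being 1 of the 2 probe sets of Abcc12.

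**Figure D4:**
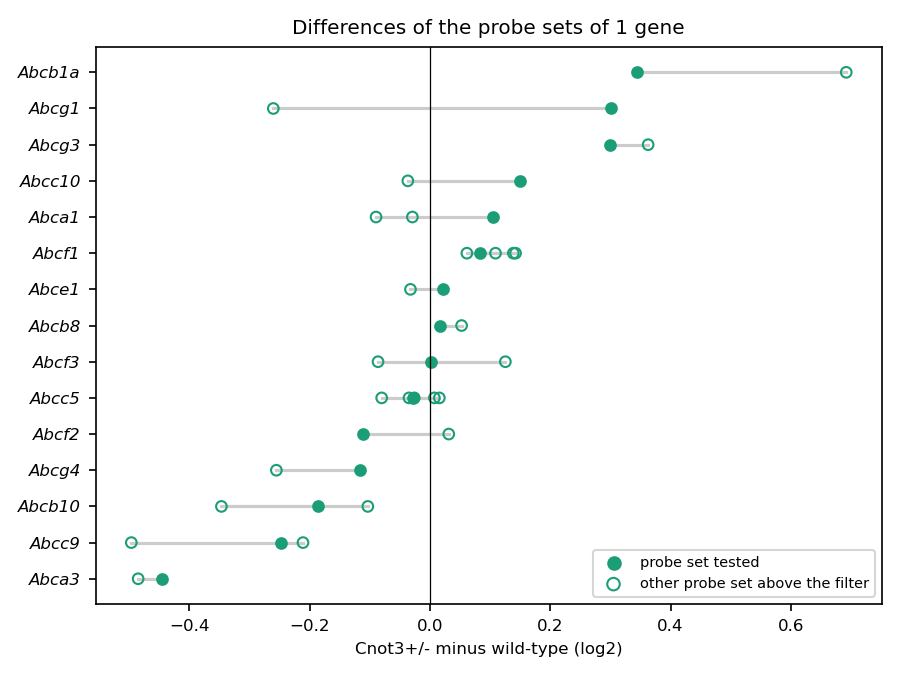
Log2 difference, Cnot3+/- minus wild-type (horizontal axis), of each probe set above the filter for the 15 genes with more than 1. Filled circles are the probe sets tested; the probe sets of Abcb1a, Abca3, Abcb10, Abcc9 and Abcg3 lie on the same side of 0, and those of Abcg1 on opposite sides.

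Markers of other liver cells moved between the arrays along with some of these genes. All 8 macrophage markers were tested, and the list's median, each gene set against its wild-type mean, was -0.08, 0.08, -0.35 and 1.59. Of the 38 ABC members 12 were highest on Cnot3+/- 2, or 31.6%, beside 24.9% of all genes. This was not particular to that array, as 12 were highest on wild-type 2, beside 22.5% of all genes. On Cnot3+/- 2 11 members were lowest, or 28.9%, beside 27.8% of all genes. Those highest on Cnot3+/- 2 were the canalicular genes Abcb11, Abcc2, Abcb4, Abcb1a and Abcb1b, along with Abcg1, Abcg3, Abcc1, Abcc4, Abca2, Abca9 and Abcd3. Abca9 and Abcd3 had differences of -0.05 and -0.01, and the second Abcg1 probe set was not highest on Cnot3+/- 2. The canalicular group's median of 0.44 on that array thus stands beside these marker values, and its median difference without that array was 0.15. The same array was highest for the T and NK cell list (4 of 5 markers tested, median 1.08) and the neutrophil list (2 of 4 tested, 1.46). It was also highest for the stellate cell and fibroblast list (0.48) and the cholangiocyte list (0.56), given in full below. The peptide transporter genes Tap1 and Tap2, ABC family members outside the symbol rule, stood at 6.34, 6.66, 6.40 and 7.93, and at 5.96, 6.26, 6.13 and 6.87. The hepatocyte list lay at -0.03, 0.03, 0.07 and 0.04. In whole liver, fewer cells of a type and less RNA per cell cannot be told apart, and the part of these cells in the values above was not tested.

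On Cnot3+/- 1 the sinusoidal endothelium list (6 of 6 tested) stood lowest, at -0.05, 0.05, -0.77 and -0.12. The stellate cell and fibroblast list (6 of 6 tested) stood at -0.06, 0.06, -0.33 and 0.48. Abcc9 was low on that same array. Of 5 cholangiocyte markers 3 were tested, at -0.13, 0.13, 0.24 and 0.56, and of 4 erythroid markers 1, Alas2, at a difference of 0.11. The part of these cells in the Abcc9 values was not tested.

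**Figure D5:**
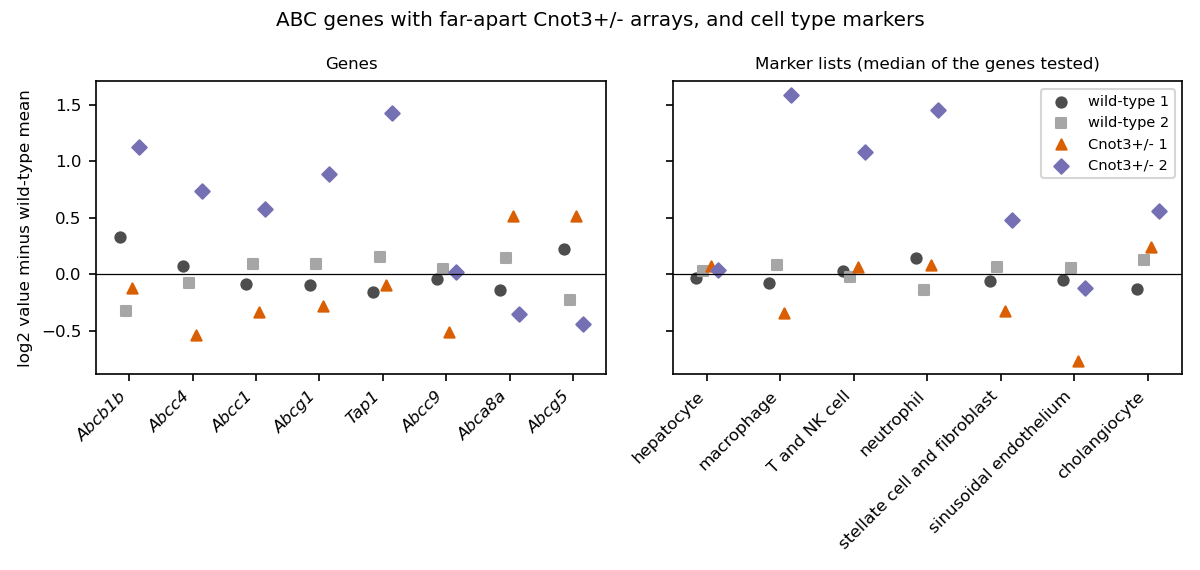
Log2 value minus the wild-type mean (vertical axis) on each array for 7 ABC transporter genes and Tap1 (left). The right panel gives the median of 7 cell type marker lists. The genes were chosen after their values were seen, among those with Cnot3+/- arrays far apart but not by rank of that gap. Abcg8, Abca7 and Abcc3, not shown, had gaps of 0.78, 0.71 and 0.60, above the 0.53 of Abcc9. On the probe sets tested, Cnot3+/- 2 is highest for Abcb1b, Abcc4, Abcc1, Abcg1 and Tap1. It is also highest for the macrophage, T and NK cell, neutrophil, stellate cell and fibroblast, and cholangiocyte lists. It is not highest for the hepatocyte and sinusoidal endothelium lists.

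The regulators and partners of these transporters held 0 called genes. Of 15 transcription factors and sensors tested, 10 were higher and 5 lower (median 0.05). Over all genes tested 47.9% were higher (median -0.01), the share to set beside this list and those below. Nr1h4, which encodes the bile acid receptor FXR that activates Abcb11 and Abcc2, stood at 9.96, 10.00, 9.86 and 9.39, a difference of -0.35 (SE 0.19), which was -0.12 without Cnot3+/- 2 and -0.58 without Cnot3+/- 1. Ahr, the aryl hydrocarbon receptor gene, differed by 0.74 (SE 0.32) and ran from 0.38 without Cnot3+/- 1 to 1.10 without Cnot3+/- 2. Nr0b2, an FXR target that encodes a repressor, differed by 0.23 (SE 0.40), and by -0.37 without wild-type 2.

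In the list of bile formation, 8 of 22 genes were higher and 14 lower (median -0.03). Its largest difference was that of the uptake carrier gene Slco1a4 at -1.18 (SE 0.14, limma adjusted p = 0.997), followed by Slco1a1 at -0.56 (SE 0.32), another uptake carrier, and by Pctp, a phosphatidylcholine transfer protein gene, at -0.45 (SE 0.22). Slco1a1 was -0.18 without Cnot3+/- 2, and Pctp was -0.22 without wild-type 1. Atp8b1, the lipid flippase of the canalicular membrane, and the bile acid importer gene Slc10a1 were in the list and differed by 0.25 (SE 0.17) and -0.03 (SE 0.16). Atp8b1 was 0.093 without wild-type 2, and Slc10a1 ran from -0.20 without Cnot3+/- 1 to 0.13 without Cnot3+/- 2.

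Partners of cholesterol efflux and targets of the sterol receptor LXR had 8 of 11 tested genes higher (median 0.12), with Srebf1 at -1.15 (SE 0.23), Mylip at -0.38 (SE 0.28) and Npc2 at 0.32 (SE 0.18). Mylip was -0.0030 without Cnot3+/- 1, and Npc2 was 0.13 without Cnot3+/- 2. Iron-sulfur cluster and heme synthesis genes had 13 of 18 lower (median -0.06), the largest being the chaperone gene Hscb at -0.26 (SE 0.13). Peroxisomal genes had 15 of 19 lower (median -0.08). Set against each gene's wild-type mean, their median was -0.16 on Cnot3+/- 1 and 0.001 on Cnot3+/- 2. The largest peroxisomal difference was that of the branched-chain acyl-CoA oxidase gene Acox2 at -0.30 (SE 0.26), which was 0.06 without wild-type 1. Of the conjugating enzymes that supply ABCC substrates 8 of 14 were lower (median -0.05). Their largest difference was that of the glutathione transferase gene Gstm2, at 8.32, 8.31, 8.70 and 9.46 (0.77, SE 0.27), or 0.39 without Cnot3+/- 2.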

How the data were processed

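Liver RNA of 4 mice was measured on one-colour Affymetrix arrays. The authors deposited log2 expression values. The submitters' processing notes name RMA, a method that corrects background, normalizes arrays together and gives 1 value per probe set; differences at low signal come out compressed. For its version, and for which arrays went in together, the sources used here give nothing, and the log2 scale was taken from the values (1.85 to 14.96). All 4 columns were mapped to their samples.

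Probe sets were named through the platform annotation: 34958 had 1 symbol, 932 several and 9211 none. All 92 member probe sets matched the gene table of assembly GRCm38.p6 by Entrez identifier, and 0 symbols changed. Values were used as deposited. Probe sets in the lowest 40% of mean value (up to 4.06) were left out, and each gene was tested through its probe set of highest mean, using _x_at or _s_at sets only where there was no other. The genotypes were compared in limma 3.58.1 (R 4.3.3), lmFit and eBayes, two-sided, no covariate, over 13379 genes, with Benjamini-Hochberg adjustment and a threshold of 0.05. The fit had 2 residual and 3.17 prior degrees of freedom. SE is the moderated standard error. An exact permutation test of 2 against 2 arrays cannot go below p = 0.333 and was not used. The fit was also run on simulated data, with added changes larger than any member difference here. That run does not speak to differences of the size seen in the members.

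The members, lists and roles were chosen with earlier results of these data known. Given with each array's value are listed hepatic export, cellular lipid, peroxisomal, mitochondrial and ABCE or ABCF genes, the 5 largest differences in each direction and members with an unadjusted p below 0.05; of each background list, up to 3 genes of largest difference. Abcc1, Abcg3, Abca8a, Alb, Atp8b1, Slc10a1 and Cyp7a1, and the array values of Nr1h4 and Gstm2, were added after their values were seen. Cftr, outside the symbol rule, did not pass the filter. Alternatives covered the filter, quantile normalization, the choice of probe set, moderation, the replicate block and leaving out each array.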

Additional observations from a re-analysis of the deposited data

How the results depend on the processing

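No ABC transporter gene passed the threshold under any of the alternatives run, the lowest adjusted p of a member being 0.233, without Cnot3+/- 1. Over all genes the count of calls fell from 2 to 0 with the replicate block, which tests the arrays by shared replicate number, and to 1 without moderation of variances; leaving out 1 array gave 0 to 38. The labels do not say that equal numbers pair mice, so the numbers were not treated as pairs. The deviations of same-numbered arrays correlated at 0.159 over genes, a value that cannot tell whether they are paired. With the block 0 members were called. The block cannot change a difference, because each replicate number occurs once in each genotype. The members' median difference of 0.02 and the 21 of 38 higher are therefore those of the main fit. Without 1 array the median ran from -0.052 (without Cnot3+/- 2) to 0.017. Of 25 named members, 9 kept their direction in every alternative in which they were tested. Among these 9, the genotypes did not overlap for Abca3, Abcb1a, Abcb10, Abcd2, Abcd4 and Abcf2. For such genes leaving out 1 array cannot turn the direction. An intensity trend and the block cannot turn it for any gene. Directions turned after quantile normalization for Abcb8 (-0.039), Abce1 (-0.020) and Abcf3 (-0.050), with a gene's probe sets averaged for Abca1 (-0.0049) and Abce1 (-0.0057), and with the brightest probe set whatever its kind for Abce1 (-0.032). With 1 array left out the range among these 25 spanned 0 for Abcg2 (-0.14 to 0.098), Abcc6 (-0.019 to 0.33), Abcf1 (-0.070 to 0.24), Abcg5 (-0.44 to 0.52), Abcc3 (-0.44 to 0.27), Abcd3 (-0.16 to 0.14), Abcb8 (-0.13 to 0.16), Abcb6 (-0.073 to 0.029), Abcf3 (-0.15 to 0.15), Abcc9 (-0.51 to 0.016), Abcg8 (-0.51 to 0.27), Abcb1b (-0.12 to 1.13), Abcc4 (-0.54 to 0.73) and Abcg1 (-0.29 to 0.89). Among other members whose differences are printed, it also spanned 0 for Abcc1 (-0.34 to 0.58), Abca8a (-0.35 to 0.52), Abca8b (-0.045 to 0.35), Abca6 (-0.033 to 0.34), Abca9 (-0.11 to 0.0072) and Abca5 (-0.32 to 0.059). The cause was not tested. Dim probe sets, such as those of Abcb1a, Abcb1b, Abcg3 and Abcd2, lie where RMA compresses differences.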
